A study of Mus musculus with 6 samples.

Results

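The genes described here encode the non-collagenous part of the extracellular matrix: adhesive and matricellular glycoproteins, proteoglycans, elastic fibre proteins, and the lysyl oxidases that cross-link them. They are a list of 49 genes, chosen by symbol with earlier results of these data known. No threshold on a measured value enters the list. Each symbol was found once among the 22183 genes of the deposited table. Their transcripts were measured by sequencing of kidney messenger RNA from mice given a plasmid carrying Wnt1 (3 libraries) and from mice given the empty vector pcDNA3 (3 libraries). Wnt1 is a secreted protein that activates beta-catenin signalling, and the series title places the study in the progression of acute to chronic kidney disease. The genotype label of the Wnt1 libraries is overexpression of the gene, and that of the others is control. The labels place all libraries in batch 1 and give no strain, sex, age, injury procedure or time after plasmid delivery, so what the groups share beyond the vector is not known here. Nor do they state whether the 3 libraries of a group are 3 animals; the p-values here therefore rest on a spread that could be technical in part or whole.

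The matrix between cells is built on collagen fibrils, to which glycoproteins and proteoglycans are bound. Fibronectin, tenascins, thrombospondins and periostin link fibrils to cell-surface receptors and are made in larger amounts in wounds and in fibrotic tissue. Small leucine-rich proteoglycans such as decorin and biglycan coat collagen fibrils and bind growth factors. Elastic fibres consist of elastin deposited on microfibrils of fibrillin, with fibulins, emilins and microfibril-associated proteins at their surface. Lysyl oxidases convert lysines of collagen and elastin into aldehydes that then form cross-links. In the kidney these proteins are found in the interstitium, around vessels and in the basement membranes of tubules and glomeruli.

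Replicate numbers follow the order of deposit and not the numbers in the library names: replicates 1, 2 and 3 are PW2, PW3 and PW5 in the Wnt1 group and C1, C3 and C6 in the control group. Expected counts, the authors' estimates of reads per gene, summed to between 23585020 and 27218085 in the Wnt1 libraries and between 24753193 and 26072435 in the control libraries. Wnt1 itself had 0, 1 and 0 reads in Wnt1 replicates 1, 2 and 3 and 0 reads in each control library, so the plasmid gene did not check the labels. The kidney markers Umod, Slc34a1 and Aqp2 were present in both groups, at 2537, 1150 and 196.5 CPM on average in Wnt1 libraries and 6025, 6209 and 274.9 CPM in control libraries. CPM here means counts scaled to library size with TMM factors, which were 1.12 to 1.19 in the Wnt1 libraries and 0.848 to 0.879 in the control libraries. On the second principal component of log2 CPM, Wnt1 replicate 3 (score -43.8) and control replicate 3 (-22.2) stood apart from the other libraries (13.6 to 18.8). Where leaving out Wnt1 replicate 3, or replicate 3 of both groups, changed a member's call, the value without it is given.

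Of the 49 genes, 48 passed the filter on low counts and could be tested. Aggrecan, Acan, the large cartilage proteoglycan, had 0 counts in all 6 libraries, and a count of 0 allows up to 0.0951 to 0.138 CPM per library, for counting error only. Spon2, Thbs4, Cthrc1 and Fbn2 passed through the Wnt1 libraries alone, so a difference was in part a condition of their being tested. Among the 48, 37 were higher with Wnt1 and 2 were lower at an edgeR adjusted p under 0.05, and 9 were not called. Over all 14432 tested genes, 22.4% were called higher and 18.7% lower. The median log2 fold change, Wnt1 over control, was 1.60 for the 48 genes and 0.05 for all tested genes. Because the list was chosen with earlier results of these data known, these comparisons with all tested genes are descriptions. All 37 genes called higher had every Wnt1 library above every control library, which held for 28.2% of all tested genes; groups without overlap, in either direction, made up 53.5%. In 22 of these 37, the lowest Wnt1 library was at least 2-fold above the highest control library. This gap was not counted over all tested genes, so the 22 have no background share to be set against. They include Spon2 and Fbn2, which passed the filter through the Wnt1 libraries alone. A call at 4-fold or more was reached by 17 of the 48, against 6.86% of tested genes. Bulk kidney RNA cannot tell more cells of a type from more RNA per cell, and this holds for every value that follows.

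**Figure D1:**
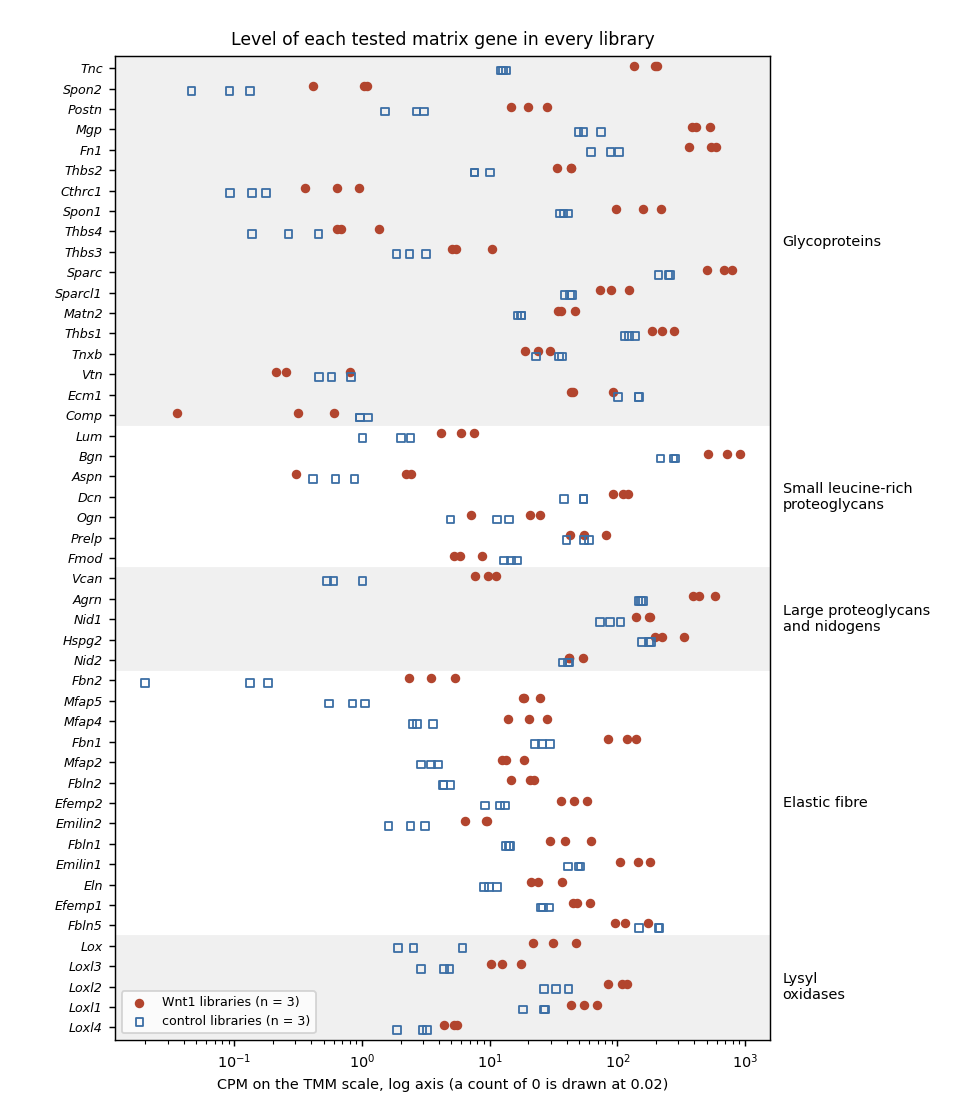
Level of each of the 48 tested genes in every library, as CPM on the TMM scale with a log axis, ordered by role and then by change; a count of 0 is drawn at the left edge. Filled circles are the 3 Wnt1 libraries and open squares the 3 control libraries, and the circles lie to the right of all squares for the 37 genes called higher.

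The promoter windows of 4 genes are printed first. These genes are Tnc, Postn and Thbs2, which were higher with Wnt1, and Ecm1, which was lower. The Ecm1 call was lost in 6 of 18 alternative fits. The 4 genes were chosen after their values were seen. Each window runs from 250 bases before to 50 bases after a RefSeq transcription start in GRCm38.p6 and is written 5′ to 3′ on the gene's strand. Where a gene had several windows, the window nearest its GENCODE start is printed. Capitals mark the motifs that were searched on both strands. The windows are chr4:64046966-64047265 (minus strand) for Tnc, chr3:54360857-54361156 (plus strand) for Postn, chr17:14694213-14694512 (minus strand) for Thbs2 and chr3:95739520-95739819 (minus strand) for Ecm1.
Tnc: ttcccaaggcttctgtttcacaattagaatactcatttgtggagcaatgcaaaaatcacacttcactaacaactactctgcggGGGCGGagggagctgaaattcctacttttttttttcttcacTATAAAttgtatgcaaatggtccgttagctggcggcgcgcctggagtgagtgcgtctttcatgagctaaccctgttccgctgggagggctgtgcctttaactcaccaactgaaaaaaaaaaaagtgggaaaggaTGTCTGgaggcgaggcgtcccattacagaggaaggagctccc
Postn: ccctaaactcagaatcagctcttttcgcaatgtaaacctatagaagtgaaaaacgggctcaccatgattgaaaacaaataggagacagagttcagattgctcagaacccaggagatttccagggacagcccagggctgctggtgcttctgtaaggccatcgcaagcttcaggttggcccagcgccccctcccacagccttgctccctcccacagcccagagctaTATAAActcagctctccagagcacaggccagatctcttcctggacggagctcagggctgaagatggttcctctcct
Thbs2: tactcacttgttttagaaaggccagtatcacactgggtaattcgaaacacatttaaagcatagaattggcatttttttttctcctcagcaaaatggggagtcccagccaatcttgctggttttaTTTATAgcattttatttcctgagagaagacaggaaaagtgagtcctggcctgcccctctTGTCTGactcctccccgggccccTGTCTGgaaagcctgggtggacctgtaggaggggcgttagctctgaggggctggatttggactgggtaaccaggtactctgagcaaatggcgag
Ecm1: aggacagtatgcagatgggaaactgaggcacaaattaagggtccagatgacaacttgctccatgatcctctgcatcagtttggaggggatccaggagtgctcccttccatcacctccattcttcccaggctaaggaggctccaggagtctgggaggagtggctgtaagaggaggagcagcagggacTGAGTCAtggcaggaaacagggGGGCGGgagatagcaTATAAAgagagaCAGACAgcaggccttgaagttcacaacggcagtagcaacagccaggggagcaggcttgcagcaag

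The Ecm1 window held an AP-1 motif that began 64 bases before the start and a GC box at 42. It also held a TATA box at 27 and a CAGA box at 15 bases before the start. The window of Fmod, the other gene called lower, is not printed and held none of the motifs searched. The Postn window held 1 TATA box, 26 bases before the start. The Thbs2 window held CAGA boxes at 67 and 44 bases before the start on the other strand, and a TATA motif at 126 on the other strand. The Tnc window held a GC box at 167 and a TATA motif at 126 bases before the start. It also held a CAGA box at base 9 of the transcript on the other strand. Tnc and Postn each had another window that is not printed. That of Tnc held 2 CAGA boxes, 1 TATA motif and 1 GC box, and that of Postn held none of the motifs.

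Of the 49 genes, 29 had at least 1 promoter window in the RefSeq table, and the motifs were counted in each. The AP-1 motif, TGANTCA, was in a window of 3 of the 29 genes (10.3%: Ecm1, Efemp1 and Tnxb), against 6.7% of 11352 tested genes with a window. The CRE, TGACGTCA, was in none, against 3.29%. The TCF/LEF motif searched, CTTTGAT, was in none of the 29 either, against 3.2% of tested genes. The CAGA box bound by SMAD proteins, searched as CAGACA, was in 11 of 29 (37.9%), against 19.1%. TATAAA was in 7 of 29 (24.1%), against 9.22%, and the GC box GGGCGG in 19 of 29 (65.5%), against 66.0%. The CArG box of serum response factor was in none, against 1.52%. In all 32851 windows of the table, of the same length, these motifs were in 7.81% (AP-1), 1.79% (CRE), 3.73% (TCF/LEF), 21.0% (CAGA box), 13.6% (TATAAA), 35.7% (GC box) and 1.63% (CArG). A match is a run of letters and not a bound site.

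The adhesive and matricellular glycoproteins gave 14 genes higher and 1 lower of 18 tested. The 14 include Spon2, Thbs4 and Cthrc1, which passed the filter on low counts through the Wnt1 libraries alone. Tenascin C, Tnc, a hexameric glycoprotein of wounds and stroma, had 134, 196 and 205 CPM in Wnt1 replicates 1, 2 and 3, against 13.4, 12.3 and 12.7 CPM in control replicates 1, 2 and 3. All Wnt1 libraries lay far above all control libraries. The log2 fold change, Wnt1 over control, was 3.80 ± 0.20 (edgeR standard error; adjusted p = 2.68e-05). Periostin, Postn, a matricellular protein made by fibroblasts, had 19.9, 28.2 and 14.6 CPM with Wnt1 and 2.67, 3.06 and 1.51 CPM in controls. The groups were well apart (3.11 ± 0.34; edgeR adjusted p = 0.000346), although replicate 3 was the lowest library of both. Spon2, a secreted F-spondin relative, rested on few reads, with 13, 29 and 29 counts in Wnt1 libraries and 1, 3 and 2 in control libraries (3.15 ± 0.62; edgeR adjusted p = 0.00439).

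Matrix Gla protein, Mgp, an inhibitor of tissue calcification, ranked 1st of the 49 genes in mean FPKM with Wnt1. On the CPM scale, which does not divide by length, it had 381, 415 and 530.1 CPM in Wnt1 libraries and 49.5, 54.1 and 74.3 CPM in control libraries. No library of one group came near the other (2.90 ± 0.21; edgeR adjusted p = 6.52e-05). Sparc, osteonectin, a collagen-binding protein, had 503, 688 and 793 CPM with Wnt1 and 257, 209 and 251 CPM in controls. The groups again did not overlap (1.47 ± 0.19; edgeR adjusted p = 0.000654). Fibronectin, Fn1, the main adhesive glycoprotein of provisional matrix, averaged 498 ± 121 CPM with Wnt1 and 84.3 ± 20.3 CPM in controls (SD, n = 3 each; 2.56 ± 0.25). The other glycoproteins called higher were Spon1 (2.06), the Sparc paralogue Sparcl1 (1.19), and matrilin 2, Matn2 (1.17), for which the log2 fold change is given, and Cthrc1. Cthrc1, a secreted protein of activated fibroblasts, had only 20, 10 and 25 counts in Wnt1 libraries and 2, 4 and 3 in control libraries.

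Of the thrombospondins, which bind calcium, matrix proteins and cell receptors, Thbs1 to Thbs4 were called higher and Comp was not called. Thbs2 had 33.7, 43.3 and 43.6 CPM with Wnt1 and 9.98, 7.58 and 7.58 CPM in controls (2.26 ± 0.18). Thbs1, an activator of latent TGF-beta, was the most abundant of the family and averaged 229 ± 45.8 CPM with Wnt1 and 124 ± 11.6 CPM in controls (SD, n = 3 each; 0.88 ± 0.17). Thbs3 averaged 6.97 ± 3.01 CPM with Wnt1 and 2.45 ± 0.651 CPM in controls (SD, n = 3 each; edgeR adjusted p = 0.00988), and its exons share 318 bases with Mtx1 on the opposite strand. Thbs4 gave 1.61 ± 0.52, from 20, 38 and 18 counts with Wnt1 and 3, 6 and 10 in controls. The Thbs4 call was lost with DESeq2 on all libraries (1.60; adjusted p = 0.0604), and without Wnt1 replicate 1 or 2 or without control replicate 1 or 2 (edgeR adjusted p = 0.0503, 0.140, 0.121 and 0.119). Comp, the cartilage oligomeric matrix protein, had 10, 1 and 16 counts in Wnt1 libraries and 21, 25 and 21 in control libraries (-1.66 ± 0.64; edgeR adjusted p = 0.0678). Without Wnt1 replicate 3 it was called lower (-2.44; edgeR adjusted p = 0.0135). On all libraries it was called lower with voom and quality weights (-2.63, adjusted p = 0.00511).

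Ecm1, a glycoprotein that binds perlecan and other matrix proteins, was the glycoprotein called lower. It had 44.7, 43.5 and 92 CPM in Wnt1 libraries and 147, 101 and 146 CPM in control libraries. The groups did not overlap, but Wnt1 replicate 3 lay close to control replicate 2 (-1.13 ± 0.32; edgeR adjusted p = 0.0233). The call was lost without Wnt1 replicate 1 or 2 and without control replicate 1 or 3 (edgeR adjusted p = 0.0792, 0.0773, 0.0716 and 0.0718), with library totals in place of TMM factors (-0.72; edgeR adjusted p = 0.0827) and with limma on unfiltered log2(FPKM + 1) (-0.86; adjusted p = 0.0620). Leaving out Wnt1 replicate 3 kept the call (-1.58; edgeR adjusted p = 0.000695). Over all alternatives its adjusted p ran between 0.000252 and 0.0827. Tenascin X, Tnxb, which organises collagen fibrils, averaged 24.2 ± 5.55 CPM with Wnt1 and 31.5 ± 7.38 CPM in controls and was not called (-0.38 ± 0.23). Vitronectin, Vtn, a plasma adhesion protein made mainly by liver, had 8, 6 and 21 counts with Wnt1 and 10, 13 and 18 in controls, also without a call (-0.58 ± 0.56; edgeR adjusted p = 0.446). It was called lower without Wnt1 replicate 3 (-1.39; edgeR adjusted p = 0.0356) and with voom and quality weights (-1.11; adjusted p = 0.0267), and not without replicate 3 of both groups (-1.14; adjusted p = 0.0796).

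Small leucine-rich proteoglycans moved in both directions, with 3 genes higher, 1 lower and 3 not called of 7 tested. Biglycan, Bgn, had 516, 725 and 909 CPM with Wnt1 and 274, 218 and 284 CPM in controls (1.47 ± 0.22; edgeR adjusted p = 0.00135). Decorin, Dcn, had 111, 122 and 91.8 CPM with Wnt1 and 54.2, 54.1 and 38.0 CPM in controls (1.15 ± 0.18; edgeR adjusted p = 0.00181). Lumican, Lum, had 5.93, 7.54 and 4.14 CPM with Wnt1 and 2.02, 2.39 and 1.00 CPM in controls (1.70 ± 0.36; edgeR adjusted p = 0.0069). All of these were without overlap between the groups. Fibromodulin, Fmod, which like lumican binds collagen fibrils and regulates their diameter, was lower, with 5.80, 5.24 and 8.69 CPM in Wnt1 libraries and 12.9, 14.7 and 16.3 CPM in control libraries. Every Wnt1 library lay below every control library (-1.15 ± 0.22; edgeR adjusted p = 0.00458), and the call held under every alternative that was run, with log2 fold changes of -1.40 to -0.57.

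The calls of Ogn and Aspn depended on replicate 3. Osteoglycin, Ogn, had 20.5, 24.9 and 7.09 CPM with Wnt1 and 14.1, 11.4 and 4.93 CPM in controls, so replicate 3 of the Wnt1 group lay inside the control range (0.79 ± 0.51; edgeR adjusted p = 0.258). Asporin, Aspn, had 2.22, 2.41 and 0.303 CPM with Wnt1 and 0.874, 0.620 and 0.411 CPM in controls (1.37 ± 0.70; edgeR adjusted p = 0.155). Without replicate 3 of both groups, Ogn (0.82; adjusted p = 0.0020) and Aspn (1.62; adjusted p = 0.00288) were called higher by edgeR. Voom with quality weights on all libraries also called both higher (adjusted p = 0.0216 and 0.00726). With an offset for transcript GC content in the edgeR fit, neither was called (0.29 and 0.67, adjusted p = 0.238 and 0.194). Prelp, which anchors basement membrane to connective tissue, averaged 59.5 ± 20.2 CPM with Wnt1 and 51.3 ± 10.3 CPM in controls and was not called (0.21 ± 0.26).

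Of the small leucine-rich proteoglycan genes, 6 lie in 3 neighbouring pairs in the mouse genome (GRCm38, GENCODE M21), and Bgn lies apart on chromosome X. Dcn (chromosome 10, 97479609 to 97518143) and Lum (97565128 to 97572703) have no protein-coding gene between them, and both were called higher. Prelp (chromosome 1, 133910304 to 133921414) and Fmod (134037254 to 134048277) also have none between them, and of these Fmod was called lower and Prelp was not called. Aspn (chromosome 13, 49544443 to 49567565) and Ogn (49608046 to 49624501) have 1 between them, the related Omd, which averaged 0.44 CPM with Wnt1 and 0.935 CPM in controls and was not called. Neighbouring members therefore did not all carry the same call.

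Among the large proteoglycans and nidogens, 3 were higher and 0 lower of 5 tested. Versican, Vcan, a hyaluronan-binding proteoglycan of provisional matrix, had 9.67, 11.2 and 7.70 CPM with Wnt1 and 0.598, 0.532 and 1.00 CPM in controls. The lowest Wnt1 library was 7.67-fold above the highest control library (3.74 ± 0.30; edgeR adjusted p = 9.55e-05). Agrin, Agrn, a heparan sulphate proteoglycan of basement membranes, had 387, 431 and 583 CPM with Wnt1 and 146, 158 and 152 CPM in controls, again without overlap (1.62 ± 0.17; edgeR adjusted p = 0.000277). Nidogen 1, Nid1, which bridges laminin and collagen IV, had 140.4, 181 and 175 CPM with Wnt1 and 106, 72.9 and 87.2 CPM in controls (0.90 ± 0.17; edgeR adjusted p = 0.00439).

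Perlecan, Hspg2, a heparan sulphate proteoglycan of basement membranes, had 196, 222 and 335 CPM in Wnt1 libraries and 177, 155 and 182 CPM in control libraries. The groups did not overlap, but the gene missed the threshold (0.55 ± 0.21; edgeR adjusted p = 0.0658) in the fit reported here. It was called higher in 11 of 18 alternatives, among them DESeq2 (0.52; adjusted p = 0.0481), the GC offset (0.47; edgeR adjusted p = 0.00856), the fit without replicate 3 of both groups (0.33; edgeR adjusted p = 0.0258) and library totals (0.96; edgeR adjusted p = 0.00475). With library totals the median of all tested genes was also higher, at 0.47 against 0.05. The FPKM fits, which use no TMM factors either, called Hspg2 higher as well (0.87 to 0.93). Nidogen 2, Nid2, averaged 45.8 ± 7.21 CPM with Wnt1 and 40.1 ± 2.56 CPM in controls (SD, n = 3 each; 0.19 ± 0.15; edgeR adjusted p = 0.336). With library totals Nid2 was called higher (0.61; edgeR adjusted p = 0.00772), where the median of all tested genes was 0.47 against 0.05. The FPKM fits also called Nid2 higher (0.54 to 0.6). Its exons share 437 bases with Rtraf on the opposite strand, and no source used here says whether counting was by strand.

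Elastic fibre genes were higher in 12 of 13 cases, with 0 lower. The 12 include Fbn2, which passed the filter on low counts through the Wnt1 libraries alone. The largest change was that of fibrillin 2, Fbn2, the fibrillin of developing tissue, with 74, 152 and 92 counts in Wnt1 libraries and 4, 3 and 0 counts in control libraries. This corresponds to 2.35, 5.38 and 3.49 CPM against 0.184, 0.133 and 0 CPM, and the log2 fold change (5.08 ± 0.65; edgeR adjusted p = 0.000592) is imprecise because control reads were few. It was 5.76 without control replicate 1, 4.61 without control replicate 3 and 4.56 without replicate 3 of both groups. Fibrillin 1, Fbn1, the main microfibril protein of adult tissue, had 85.0, 118 and 138 CPM with Wnt1 and 29.7, 22.7 and 25.5 CPM in controls (2.13 ± 0.21). Per length, Fbn1 stayed the more abundant fibrillin, at a mean of 13.3 FPKM with Wnt1 and 2.27 FPKM in controls, against 0.394 and 0.00833 FPKM for Fbn2.

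The microfibril-associated proteins Mfap2, Mfap4 and Mfap5 and elastin were all called higher. Mfap5, a small fibrillin-binding glycoprotein also called MAGP2, had 18.4, 18.2 and 24.6 CPM in Wnt1 libraries and 1.06, 0.842 and 0.548 CPM in control libraries. Its lowest Wnt1 library was 17.2-fold above its highest control library (4.64 ± 0.27; edgeR adjusted p = 3.16e-05). Mfap4, which binds elastin and fibrillin, had 13.9, 20.4 and 28.1 CPM with Wnt1 and 3.59, 2.48 and 2.69 CPM in controls (2.83 ± 0.30; edgeR adjusted p = 0.00026). Mfap2 gave 2.11 ± 0.22. Elastin, Eln, averaged 27.2 ± 8.44 CPM with Wnt1 and 10.1 ± 1.15 CPM in controls (SD, n = 3 each; 1.43 ± 0.23).

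The emilins and fibulins followed. Emilin1, an elastin-associated glycoprotein, had 104, 144 and 181 CPM with Wnt1 and 49.6, 40.8 and 51.4 CPM in controls (1.60 ± 0.21; edgeR adjusted p = 0.000791), and Emilin2 gave 1.83 ± 0.29. Efemp2, fibulin 4, which brings lysyl oxidase to elastin, had 36.4, 45.4 and 57.4 CPM with Wnt1 and 12, 9.13 and 13.1 CPM in controls (2.02 ± 0.22; edgeR adjusted p = 0.000284). Efemp1, fibulin 3, had 44.9, 47.9 and 60.6 CPM with Wnt1 and 26.2, 28.9 and 25.2 CPM in controls (0.93 ± 0.15; edgeR adjusted p = 0.00212). Fbln1 (1.65 ± 0.27) and Fbln2 (2.09 ± 0.20) were also called higher. Fbln5, fibulin 5, which is needed for elastic fibre assembly, was not called. It had 94.8, 114 and 174 CPM in Wnt1 libraries and 214, 148 and 210 CPM in control libraries, so Wnt1 replicate 3 overlapped the controls (-0.58 ± 0.25; edgeR adjusted p = 0.106). Without Wnt1 replicate 3 it was called lower (-0.87; edgeR adjusted p = 0.00844). On all libraries it was called lower with DESeq2 (-0.61, adjusted p = 0.0416) and with voom and quality weights (-0.75, adjusted p = 0.0065).

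All 5 lysyl oxidases were called higher. Lox had 31.3, 47.3 and 21.7 CPM in Wnt1 libraries and 6.12, 2.53 and 1.92 CPM in control libraries (3.25 ± 0.48; edgeR adjusted p = 0.00142). Control replicate 1 stood above the other controls, and without it the log2 fold change was 3.99. Loxl2, which acts on collagen IV, had 83.7, 109 and 118 CPM with Wnt1 and 41.2, 26.7 and 33.1 CPM in controls (1.62 ± 0.20; edgeR adjusted p = 0.000573). Loxl1, which acts on elastin, had 43.6, 55.0 and 69.1 CPM with Wnt1 and 27.1, 18.1 and 26.6 CPM in controls (1.22 ± 0.22; edgeR adjusted p = 0.00331). Loxl3 had 10.3, 12.4 and 17.6 CPM with Wnt1 and 4.37, 2.88 and 4.84 CPM in controls (1.73 ± 0.28; edgeR adjusted p = 0.0018), and its exons share 535 bases with Htra2 on the opposite strand. Loxl4 gave 0.91 ± 0.26, and its call was lost without Wnt1 replicate 2 or control replicate 2 (edgeR adjusted p = 0.0697 and 0.0510).

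**Figure D2:**
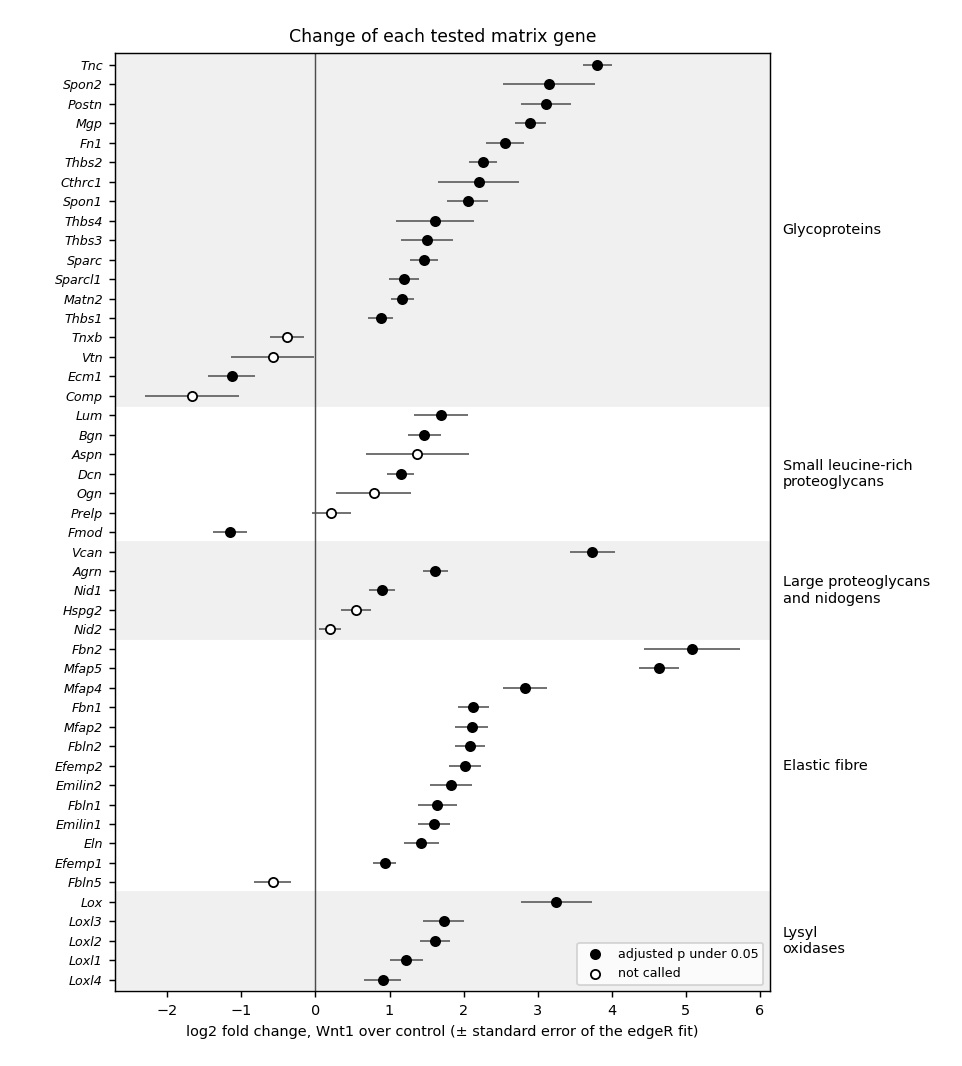
Log2 fold change, Wnt1 over control, of each of the 48 tested genes, with bars for the standard error of the edgeR fit. Filled points are called at an adjusted p under 0.05 and open points are not, and the called points left of 0 are Ecm1 (-1.13) and Fmod (-1.15).

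On the FPKM scale, which divides by transcript length and so lets genes be compared, the summed level of the 49 genes was 1951, 2489 and 2810 FPKM in Wnt1 libraries and 679.9, 561.8 and 680.0 FPKM in control libraries. FPKM uses library totals and no TMM factors, so levels with Wnt1 are higher against controls than on the CPM scale. In CPM the sum was 4052, 5252 and 6186 in Wnt1 libraries and 2168, 1817 and 2140 in control libraries. Mgp held 36.7%, 32.3% and 34.2% of the sum in Wnt1 libraries and 10.4%, 13.5% and 15.0% in control libraries. Sparc (15.6% and 16.4%) and Bgn (14.2% and 14.6%) held near-equal shares in Wnt1 and control libraries. Ecm1 held 2.06% with Wnt1 and 13.8% in controls, and Fbln5 2.19% and 9.29%. These shares fell more than the levels, because the sum they are taken of rose. Mean FPKM was 50.6 with Wnt1 and 89.4 in controls for Ecm1, and 53.4 and 59.9 for Fbln5. Mean CPM was 60.1 with Wnt1 and 131 in controls for Ecm1, and 128 and 190 for Fbln5. In rank of mean FPKM, Mgp was 1st with Wnt1 and 4th in controls, and Ecm1 was 8th with Wnt1 and 3rd in controls. Of the role groups, elastic fibre proteins held 10.2% to 11.5% in Wnt1 libraries and 15.6% to 17.0% in control libraries. Their summed level was nonetheless higher with Wnt1, at 201, 253.8 and 323.9 FPKM against 115.3, 87.81 and 109.5 FPKM in controls. On the CPM scale it was 484, 619.7 and 817.4 against 369.2, 285.4 and 365.4. Lysyl oxidases held 2.15% to 2.48% with Wnt1 and 1.99% to 2.43% in controls.

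**Figure D3:**
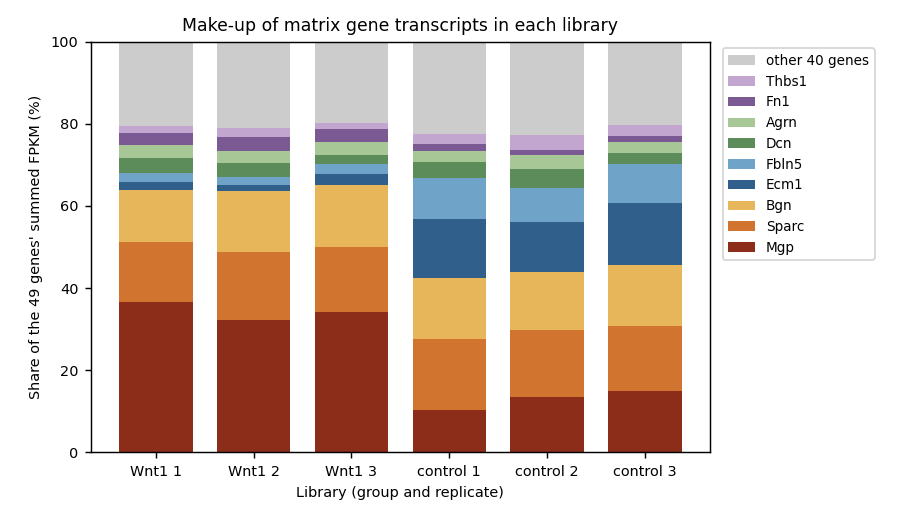
Share of the summed FPKM of the 49 genes (percent) held by 9 genes and by the other 40 together, one stacked bar per library, Wnt1 libraries on the left and control libraries on the right. Mgp takes 34.4% on average with Wnt1 and 10.4% to 15.0% in controls, and Ecm1 takes 2.06% against 13.8%.

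The members differed among themselves in which Wnt1 library was highest. Wnt1 replicate 3 held the highest CPM for 36 of the 48 tested genes and the lowest for 8, and Wnt1 replicate 1 the lowest for 32 and the highest for 0. The 8 genes lowest in Wnt1 replicate 3 were Postn, Sparcl1, Dcn, Lum, Ogn, Aspn, Vcan and Lox. Of these, all except Vcan were also lowest in control replicate 3. The longest transcripts of these 8 genes had a GC content of 34.3% to 48.2% (median 39.6%), against 44.9% to 61.1% (median 53.8%) for the other 40. Across the 48 genes, the log2 ratio of replicate 3 to the mean of replicates 1 and 2 went with GC content in the Wnt1 group (Pearson r = 0.73, Spearman rho = 0.55) and in the control group (0.53 and 0.51). These are descriptions across genes of the same libraries, which are not independent replicates. The part of GC content in the results was not tested beyond an offset for it in the fit, with which 38 of the 48 genes were called higher. With the offset, log2 fold changes were 2.73 for Postn, 1.2 for Sparcl1, 0.82 for Dcn and 1.52 for Lum. They were 0.29 for Ogn, 0.67 for Aspn, 3.6 for Vcan and 3.14 for Lox. Of these 8 genes, Ogn and Aspn were not called (edgeR adjusted p = 0.238 and 0.194), and the others kept their calls. Comp was called lower with the offset (-1.74, edgeR adjusted p = 0.0327).

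**Figure D4:**
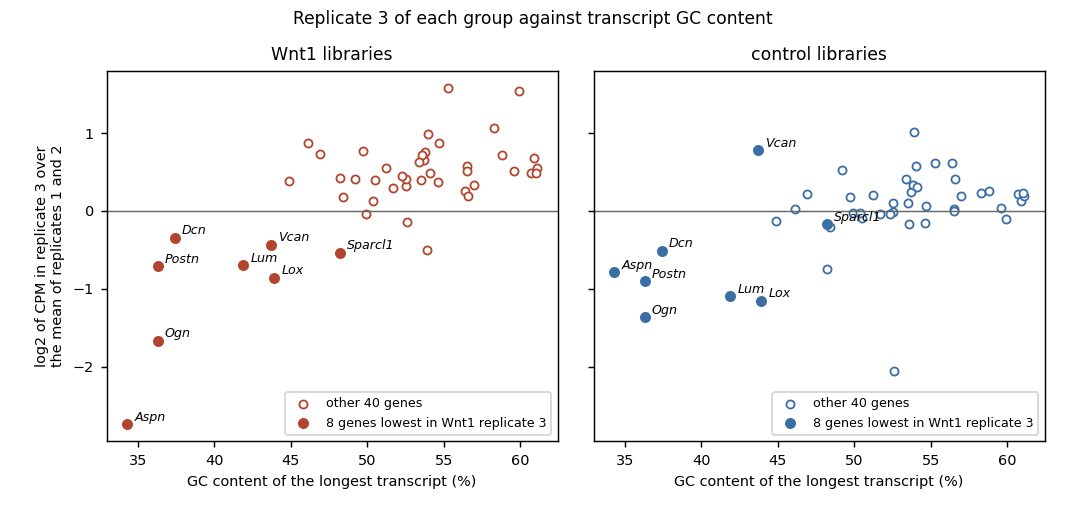
Log2 ratio of CPM in replicate 3 to the mean of replicates 1 and 2, each with 0.05 CPM added, against transcript GC content for the 48 tested genes, Wnt1 libraries in the left panel and control libraries in the right panel. Filled points are the 8 genes lowest in Wnt1 replicate 3, which lie at a GC content of 34.3% to 48.2%.

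Marker lists of cell types were read in the same libraries, and they moved in different directions. Their counts stand beside 22.4% called higher and 18.7% called lower over all tested genes. Fibroblast and mural cell markers were higher in 9 of 11 tested genes, with 0 lower. Their summed level was 2141, 3065 and 3535 CPM in Wnt1 libraries and 740.5, 569 and 599 CPM in control libraries. The list includes the collagen genes Col1a1, Col1a2 and Col3a1, so its count and sum are in part those of matrix genes. Macrophage markers were higher in 10 of 10 (1745 to 2129 CPM with Wnt1, 221 to 273 CPM in controls). Endothelial markers were higher in 0 and lower in 4 of 8 (351 to 473 CPM with Wnt1, 543 to 637 CPM in controls). Smooth muscle markers were higher in 1 and lower in 2 of 5. Podocyte markers were higher in 0 and lower in 3 of 6 (499 to 604 CPM with Wnt1, 644 to 711 CPM in controls). In 2 of the podocyte markers every Wnt1 library lay above every control library, without a call. Platelet markers, given because platelets store Thbs1 and Sparc protein, were higher in 1 and lower in 1 of 4 (9.73 to 14.2 CPM with Wnt1, 5.84 to 7.94 CPM in controls). Neutrophil markers were higher in 4 of 4, proximal tubule markers lower in 7 of 8, distal nephron and collecting duct markers lower in 5 of 7, and hepatocyte markers lower in 2 of 5. Of the chondrocyte markers 1 could be tested and was higher, and of the adipocyte markers 1 could be tested and was not called. The chondrocyte marker Col9a1 was at 0 in every library, and Col2a1 averaged 0.0224 CPM with Wnt1 and 0.0917 CPM in controls. The part of any cell type in the changes of the matrix genes was not tested.

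Other genes of the same systems were followed through lists kept apart from the 49, also chosen with earlier results of these data known. Other matrix glycoproteins and proteoglycans gave 14 higher and 4 lower of 38 tested, with a median log2 fold change of 0.41. Those with the smallest p were dermatopontin, Dpt, a decorin-binding protein (2.69 ± 0.18), osteopontin, Spp1, a secreted integrin ligand (3.84 ± 0.29), Tgfbi (2.14 ± 0.17) and hemicentin 1, Hmcn1 (2.72 ± 0.26). Spp1 was far above all of the 49 genes in CPM, at 13780 ± 4208 CPM with Wnt1 and 960.3 ± 194 CPM in controls (SD, n = 3 each). Elastic fibre and microfibril partners gave 11 higher and 0 lower of 20 tested by edgeR, with a median of 0.75; 0 were lower at an unadjusted p under 0.05 or with DESeq2, and 2 were lower with voom and quality weights. They included the latent TGF-beta binding protein Ltbp2 (5.14 ± 0.32), Bmp1 (2.22 ± 0.18), a protease that processes procollagen and pro-lysyl oxidase, Adamtsl4 (1.99 ± 0.19) and Thsd4 (1.03 ± 0.13).

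Cell-surface receptors for these proteins gave 14 higher and 3 lower of 21 tested, with a median of 0.84. The hyaluronan and osteopontin receptor Cd44 (4.51 ± 0.36), the scavenger receptor Stab1 (1.68 ± 0.17), the syndecan Sdc1 (1.66 ± 0.19) and the proteoglycan receptor Ptprs (1.43 ± 0.17) had the smallest p-values. Enzymes that build, modify or break down glycosaminoglycan chains and hyaluronan gave 11 higher and 7 lower of 41 tested, with a median of 0.14. This share of higher calls, 26.8%, was near the 22.4% of all tested genes. The sulphatase Sulf1 rose (2.46 ± 0.24), while Xylt1, which starts chondroitin and heparan sulphate chains (-1.30 ± 0.15), and the chondroitin enzymes Chst7 (-1.86 ± 0.21) and Csgalnact1 (-1.60 ± 0.21) fell. With library totals the split of these enzymes was 23 higher and 4 lower.

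**Figure D5:**
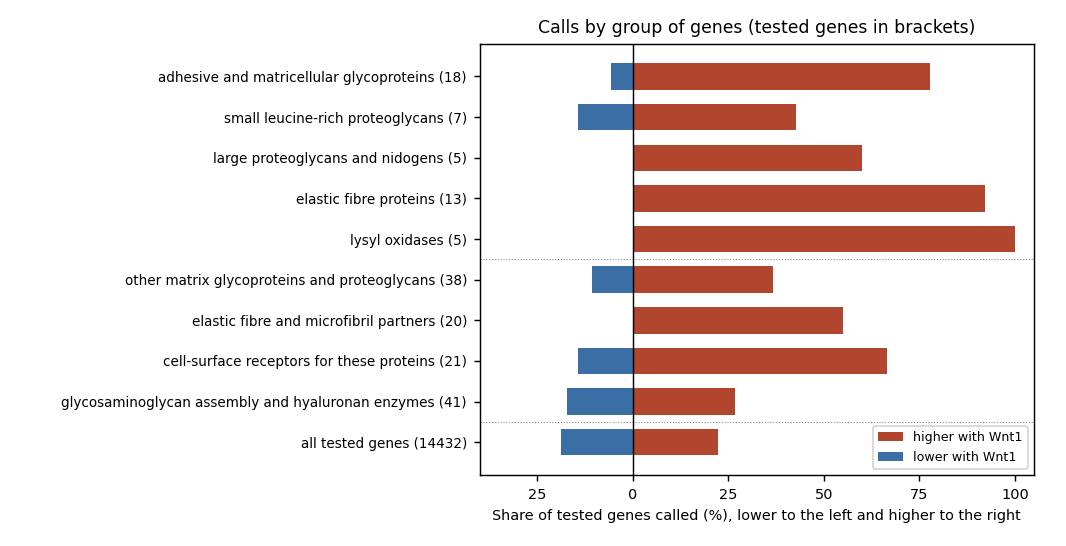
Share of tested genes called higher (to the right) or lower (to the left) with Wnt1, in percent, for the 5 role groups of the 49 genes, 4 lists of related genes and all tested genes, with the number tested in brackets. All 5 lysyl oxidases and 12 of 13 elastic fibre genes were called higher, against 22.4% of all tested genes. The 12 include Fbn2, which passed the filter through the Wnt1 libraries alone.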

How the data were processed

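The members and gene lists were chosen with earlier results of these data known. Libraries came from poly(A) RNA of whole kidney tissue and were sequenced on an Illumina NovaSeq, per the labels' protocols. The submitters' processing notes name RSEM, HISAT2, StringTie 1.3.1, Bowtie2 2.2.8 and fastp 0.18.0 and the build mm10; what each did, and whether strand was used, is not stated there. The deposited values are the authors' expected counts and FPKM per gene and library, per the file headers; FPKM divides by length and library total. Expected counts were rounded (9.02% were not whole within 1e-06).

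Counts were tested in R 4.3.3 with edgeR 4.0.16: filterByExpr, TMM factors, robust quasi-likelihood test, two-sided, Benjamini-Hochberg adjustment over 14432 genes, with calls at an adjusted p under 0.05. The standard error of a log2 fold change (Wnt1 over control) comes from the coefficient and F statistic, so it adds nothing to the p-value. On simulated counts, 196 of 200 genes changed 4-fold were recovered. Alternatives used DESeq2 1.42.0 and limma 3.58.1 (log2(FPKM + 1) and log2(FPKM + 0.1), FPKM of at least 1 in 3 libraries or no filter), other factors and filters, voom with quality weights, and left-out libraries. An offset for transcript GC content, known for 99.9% of tested genes, was chosen after seeing the data. Per-library values were to be given for the 3 called members of each role group with the highest mean FPKM, the 3 with the largest change, and those called lower; other members whose library values are printed were chosen after their values were seen. From each other list the 4 called genes with the smallest p were named. Coordinates are those of GENCODE M21 (GRCm38, the assembly that mm10 names). Intervals and floors cover counting error only.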

Additional observations from a re-analysis of the deposited data

How the results depend on the processing

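Under 17 other settings and the GC offset, which was chosen after seeing the data, between 34 and 40 members were called higher, and none of the 48 tested members changed direction with a call. The 34 came from 42 members tested with a CPM of at least 1 in a whole group and from 40 with an FPKM of at least 1. The number called lower was less stable: 1 with library totals and 1 with limma on log2(FPKM + 1) without a filter, 5 with voom and quality weights, 4 without replicate 3 of both groups, and 1 to 5 when single libraries were left out (35 to 39 higher). The cause was not tested. In total, 38 members kept their call or the lack of it under every alternative in which they were tested. The others were Thbs4, Ecm1 and Loxl4, which lost a call, and Comp, Vtn, Ogn, Aspn, Hspg2, Nid2 and Fbln5, which gained one.

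Counts of the other lists moved as follows. Receptors had 1 lower with library totals and each FPKM fit, 5 with voom, without replicate 3 of both groups or with the GC offset, and 1 to 4 with single libraries left out. Elastic fibre partners had 2 lower with voom, 4 without replicate 3 of both groups, 1 with the GC offset and 0 to 2 with single libraries left out. Glycosaminoglycan and hyaluronan enzymes had 23 higher with library totals and 19 with unfiltered FPKM, and 4 lower with library totals and each FPKM fit, 12 with voom, 14 without replicate 3 of both groups, 11 with the GC offset and 5 to 11 with single libraries left out. Other matrix glycoproteins had 1 lower with library totals and with unfiltered FPKM, 2 with the filtered FPKM fits, 8 without replicate 3 of both groups, 7 with the GC offset and 2 to 6 with single libraries left out. Over all tested genes the counts moved as well. Lower calls numbered 2697 of 14432 in the fit reported here, 1288 with library totals and 1234 to 1273 with the FPKM fits. They numbered 4430 of 14432 with voom, 4432 of 14563 without replicate 3 of both groups and 3814 of 14416 with the GC offset. With single libraries left out they numbered 1797 to 3977. Higher calls numbered 3239 in the fit reported here, 6348 with library totals and 5949 with unfiltered FPKM.

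With library totals, 6348 of all tested genes were called higher and 1288 lower, and their median log2 fold change was 0.47; with TMM factors these were 3239, 2697 and 0.05. No paired analysis was possible because the library names share fewer than 2 numbers between the groups. Depth limits Spon2, Thbs4, Cthrc1, Fbn2, Comp and Vtn, whose fold changes rest on few reads.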
